A study of Mus musculus with 32 samples.

Results

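The comparison described here set hypertrophic ventricle of AT1 transgenic mice against wild type ventricle. Its members are 26 of the 32 expression arrays of the series, 8 of hypertrophy and 5 of wild type on each of 2 Affymetrix array types, chosen by their titles. Every probe set (the group of short probes that reports 1 transcript) with a signal at or above the median of its array in 3 or more arrays of a type was tested, which gave 13984 of 24965 probe sets and 9440 genes. The transgenic mice carry a cardiac specific AT1 transgene and are labelled as showing cardiac hypertrophy. The controls are labelled only as wild type. The promoter of the transgene, the number of founder lines, and the age, strain and sex of the mice are not given in the sources used here. Nor do those sources say whether samples of a group are separate animals, so p-values speak of the spread among these arrays, whose share of technical variation is unknown. The first array type is the one whose titles carry no suffix, the second the one whose titles end in bV2. The remaining 3 arrays per type come from transgenic mice in cardiac failure. They entered only the estimate of the spread, the choice of probe sets to test and the floor set under low signals.

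AT1 is not spelled out in the labels. In heart research the abbreviation commonly denotes the type 1 receptor of angiotensin II, a Gq-coupled receptor through which angiotensin raises blood pressure and, in heart muscle cells, drives growth signalling through phospholipase C, calcium and MAP kinases. Enlarged ventricles often return to a fetal pattern of transcripts, with more natriuretic peptide, beta myosin heavy chain and skeletal actin mRNA and less mRNA of the calcium pump SERCA2. Fibrosis and a shift away from fatty acid oxidation are other textbook features of this state.

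Few transcripts separated hypertrophic from wild type ventricle, and all of those called were on the second array type. A probe set is called below when its limma p-value, adjusted by the Benjamini-Hochberg method over its array type, is under 0.05. On the second type 12 of 7004 probe sets were called (0.171%), 10 higher and 2 lower in hypertrophy. After scaling every array to one median the split was 8 higher and 3 lower among 11. On the first type 0 of 6980 were called (0.0%), with a lowest adjusted p of 0.388. By an unadjusted p under 0.05, 312 probe sets of the first type (4.47%) and 684 of the second (9.77%) differed. The signals of the 2 groups did not overlap for 12 probe sets of the first type (0.172%) and 49 of the second (0.7%). The median standard error of a log2 difference was 0.13 on both types.

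The count of 12 depended on single arrays. It was 25 without hypertrophy replicate 1 and 5 without hypertrophy replicate 3. Leaving out wild type replicate 1, 4 or 5 left 6 calls each, and leaving out wild type replicate 2 or 3 left 7. The calls of Styx, Slc13a1, Med28 and the probe sets 109531_at and 164580_at held whichever single array was left out. In 4 of the 12, Styx, Vps35l, Gm5907 and 165318_f_at, 0 wild type arrays reached their array's median. These passed the filter on low signals only through transgenic arrays, of hypertrophy or failure, which favours a difference from wild type among those tested. With no filter, Styx and Vps35l were still called and Gm5907 and 165318_f_at were not. Of the 12, the female arrays alone called 3 (Styx, Slc13a1 and 109531_at) and the male arrays alone called 4, 165318_f_at being the fourth.

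**Figure D1:**
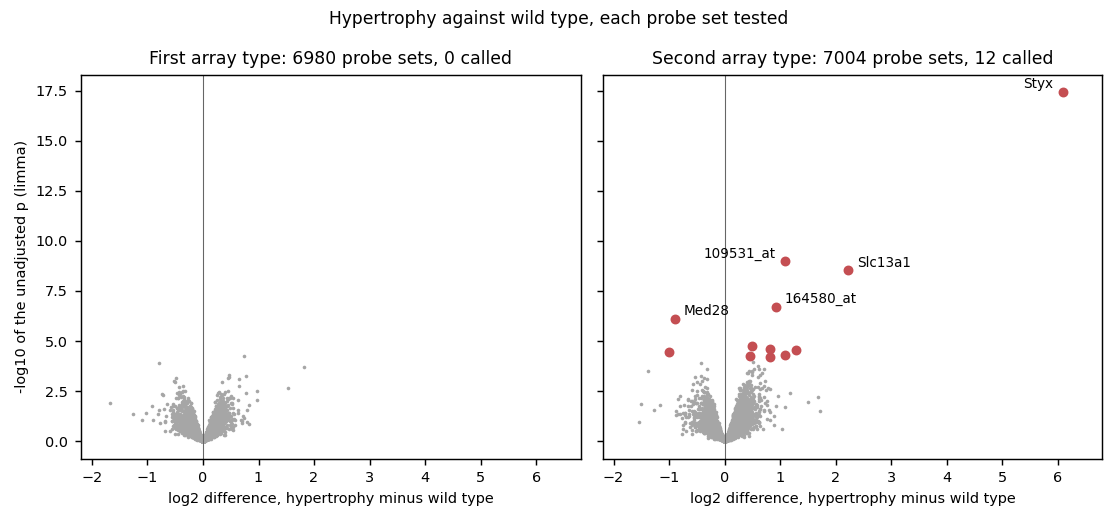
Each point is a tested probe set, with its log2 difference of hypertrophy minus wild type on the x axis and the -log10 of its unadjusted limma p on the y axis; red points are called at an adjusted p under 0.05. The left panel (first array type, 6980 probe sets) holds no call, and in the right panel (second type, 7004) Styx stands at 6.08, with 11 other calls.

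Of the 9 called genes that the platform annotation names singly, 4 have an entry in the RefSeq promoter table (GRCm38.p6, 250 bases before and 50 after the start of the gene). The promoters of Styx, Med28 and Vgll4 are shown because these genes hold the largest rise, the call of lowest adjusted p among the lower ones, and a cofactor of the TEAD factors that bind one of the motifs searched. Capitals mark matches, on either strand, to the TATA box TATAAA, the CCAAT box CCAAT, the GC box GGGCGG and the M-CAT element CATTCC.
Styx promoter, chr14:45350936-45351235 (plus strand): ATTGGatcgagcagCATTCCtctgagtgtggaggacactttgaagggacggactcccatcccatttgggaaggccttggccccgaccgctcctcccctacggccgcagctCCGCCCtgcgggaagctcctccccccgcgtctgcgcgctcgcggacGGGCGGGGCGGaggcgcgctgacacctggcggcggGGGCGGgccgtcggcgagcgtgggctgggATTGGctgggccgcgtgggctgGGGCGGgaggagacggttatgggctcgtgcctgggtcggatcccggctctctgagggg
Med28 promoter, chr5:45519979-45520278 (plus strand): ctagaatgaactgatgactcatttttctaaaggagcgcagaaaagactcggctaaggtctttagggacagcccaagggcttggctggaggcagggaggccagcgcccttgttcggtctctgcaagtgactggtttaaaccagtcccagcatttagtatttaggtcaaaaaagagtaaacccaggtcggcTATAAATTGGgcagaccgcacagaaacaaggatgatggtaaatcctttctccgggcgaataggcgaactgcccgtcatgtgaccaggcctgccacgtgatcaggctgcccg
Vgll4 promoter, chr6:114969154-114969453 (minus strand): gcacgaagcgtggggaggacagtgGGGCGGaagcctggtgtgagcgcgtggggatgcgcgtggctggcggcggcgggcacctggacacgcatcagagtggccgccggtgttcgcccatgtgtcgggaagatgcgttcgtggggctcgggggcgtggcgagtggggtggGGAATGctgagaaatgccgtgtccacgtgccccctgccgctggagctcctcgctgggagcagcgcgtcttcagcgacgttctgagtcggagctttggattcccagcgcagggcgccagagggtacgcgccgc

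The Styx promoter held 5 GC boxes, 2 CCAAT boxes and 1 M-CAT element, and 2 of its GC boxes overlap by 1 base. The Med28 promoter held a TATA box that overlaps a CCAAT box on the opposite strand by 1 base. The Vgll4 promoter held 1 GC box and 1 M-CAT element, and the fourth promoter, that of Krt77, held none of these motifs. Of the 32851 promoters in the table, 35.7% hold the GC box, 37.4% the CCAAT box, 14.7% the M-CAT element and 13.6% the TATA box. A match is a run of letters only, and no binding was measured here.

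Styx encodes a phosphatase-like protein that lacks the catalytic cysteine and binds phosphorylated proteins without dephosphorylating them. Its probe set 111299_at read 31.0, 1, 8.37, 4.03 and 21.7 in the wild type arrays, where 1 is the lowest value a file holds. In hypertrophy it read 1580 at the lowest, 1932 at the median and 2413 at the highest. Signals under 27.5, the 20th percentile of the second type, were raised to that floor before taking log2, which touched 4 of 5 wild type arrays. Hypertrophy was therefore at least 67.8-fold higher (log2 difference 6.08 ± 0.15 SE, adjusted p = 2.53e-14, n = 8 and 5, limma). The wild type arrays all lay near or under the floor, and none of the hypertrophy arrays came close to them.

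A further 2 probe sets of Styx did not show this. These are 112869_at on the second type, with 35.3 to 53.8 in hypertrophy and 34.4 to 79.2 in wild type, and 92888_s_at on the first, with 7.43 to 26.5 against 13.8 to 31.6. Both were too dim to be tested, and in both the groups overlap. On the second type the difference of 111299_at exceeded that of 112869_at by 6.27 on the log2 scale, and the array-wise ratios of the pair did not overlap between groups. Which transcript each probe set binds was not examined here. Among 22 dual-specificity and STYX phosphatase genes tested, 11 were higher and 11 lower, with a median of -0.01 (0.07 among female arrays), and Styx was the 1 call. Ssh2, a phosphatase that activates the actin-severing protein cofilin, stood at 0.41 ± 0.12 SE (adjusted p = 0.275).

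Slc13a1 encodes a sodium-sulfate cotransporter best known from the kidney and gut, where it takes up sulfate. Its probe set 106041_at read 192, 214, 244, 283 and 192 in wild type. The hypertrophy arrays ran from 689 through a median of 1001 to 1503, so the lowest of them lay above the highest wild type array. The log2 difference was 2.22 ± 0.20 SE, a 4.65-fold rise (adjusted p = 6.96e-06, n = 8 and 5). Hypertrophy replicates 1, 2 and 3 were highest, at 1503, 1375 and 1380, and replicate 6 lowest.

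The other sulfate and anion transporters of the SLC13 and SLC26 families gave no further call. Of 16 genes listed, 5 were tested and 1 was called, Slc13a1 itself. Slc13a3, a dicarboxylate transporter, differed by 0.37 ± 0.20 SE (adjusted p = 0.564), and Slc26a2, a sulfate transporter found in most tissues, by -0.18.

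Med28 encodes a subunit of the Mediator complex, which links transcription factors to RNA polymerase II. Its probe set 115635_at read 286, 379, 249.6, 319 and 343 in wild type and 137 to 215 in hypertrophy, with a median of 165. All 8 hypertrophy arrays lay below all 5 wild type arrays, and the log2 difference was -0.90 ± 0.12 SE, 1.87-fold lower (adjusted p = 0.00112). A second probe set of Med28, 95044_at on the first type, read 388 to 474 in hypertrophy and 343 to 445 in wild type. Its difference was 0.08 ± 0.09 SE, not called, so the fall was seen by 1 of the 2 Med28 probe sets.

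Among 20 Mediator genes tested, each by its brightest probe set on the first type where it has one, 0 were called and 2 had an unadjusted p under 0.05 (limma). Those are Med1, a subunit that nuclear receptors bind, at -0.44 ± 0.17 SE, and Med8 at -0.16 ± 0.07. In Med1, 6 of 8 hypertrophy arrays lay under the lowest wild type array.

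Acat1 encodes the mitochondrial thiolase that acts in ketone body and isoleucine breakdown. Its probe set 164736_r_at read 136, 141, 196, 162 and 182 in wild type, against 50.4 to 104 in hypertrophy with a median of 86.0. The groups did not overlap, and the log2 difference was -1.0 ± 0.18 SE, 2.0-fold lower (adjusted p = 0.0284). With 1 array left out the call held only without hypertrophy replicate 1, 6, 7 or 8, and the adjusted p reached 0.120 when other single arrays were left out. It was also lost without the filter and with adjustment over both types. The probe set 164907_f_at of the same gene differed by -0.12 ± 0.23, with 28.3 to 91.8 in hypertrophy and 54.2 to 88.6 in wild type, and 164876_i_at was under the floor in every array. Among 18 genes of ketone body and branched-chain amino acid breakdown, Acat1 was the 1 call and the median difference was -0.06.

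Vgll4 encodes a cofactor that binds TEAD transcription factors and competes with YAP for them, which restrains growth in the developing heart. Its probe set 162847_at read 117, 162, 143, 122 and 160.4 in wild type and 186 to 351 in hypertrophy, with a median of 236. Hypertrophy replicate 7 was highest and replicate 8 lowest, and all 8 lay above wild type. The log2 difference was 0.82 ± 0.14 SE, 1.76-fold higher (adjusted p = 0.0238), and the adjusted p rose above the threshold without hypertrophy replicate 3 or without wild type replicate 1, 3 or 4, to at most 0.0985. It was also lost without the filter on low signals and without hypertrophy replicates 6 and 7 (0.72).

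Both other Vgll4 probe sets of the second type were tested without a call. The probe set 111434_at differed by 0.14 ± 0.11 SE and 115091_at by -0.06 ± 0.14. The difference of 162847_at exceeded theirs by 0.68 and 0.88 on the log2 scale. Among 15 genes of the TEAD and Hippo list, 10 were higher and 5 lower, with a median of 0.09 beside 0.003 over all 9440 genes, and Vgll4 was the 1 call. Yap1, the coactivator at the end of the Hippo pathway, differed by 0.24 and its relative Wwtr1 by -0.65 ± 0.23 SE (adjusted p = 0.960).

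Vps35l encodes a core subunit of the retriever complex, which returns membrane proteins from endosomes to the cell surface. Its probe set 112396_at read 64.7, 61.1, 63.4, 56.4 and 55.6 in wild type and 74.9 to 96.8 in hypertrophy, with a median of 82.9. The rise was small but without overlap, 0.48 ± 0.08 SE or 1.4-fold (adjusted p = 0.0210). It was not called without hypertrophy replicate 3 or without wild type replicate 2, 4 or 5, where the adjusted p reached at most 0.0911. Its highest arrays were hypertrophy replicates 7 (96.8) and 6 (92.4), which have the low Gapdh ratios given with the array features. The call was lost without these replicates, where the difference was 0.43, and in the robust fit with a variance trend.

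Fbxw4 encodes an F-box protein of ubiquitin ligases. Its probe set 111276_r_at read 243, 363, 281, 173 and 297 in wild type and 405 to 544 in hypertrophy, a log2 difference of 0.81 ± 0.16 SE (adjusted p = 0.0386). The groups lay apart, but the call held in only 2 of 13 fits with 1 array left out, those without hypertrophy replicate 1 or wild type replicate 2. Quantile normalization, median scaling, sex as a covariate, adjustment over both types, the fit without a filter and the fit without hypertrophy replicates 6 and 7 each ended it. Other probe sets of Fbxw4 stood at -0.03 ± 0.13 (96768_at, first type) and -0.35 ± 0.17 (164901_r_at, second type), so 111276_r_at exceeded the latter by 1.17 on the log2 scale.

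Krt77, an epidermal type II keratin, was reported by a probe set of a sequence family, 164804_f_at, whose probes may also bind related transcripts. It read 154, 154, 151, 122 and 145 in wild type and 175 to 227 in hypertrophy (0.46 ± 0.09 SE, adjusted p = 0.0365). Among the fits with 1 array left out, that call held only without hypertrophy replicate 1 or 6. It was lost under quantile normalization and under median scaling, as well as with sex as a covariate, with only the groups compared, with adjustment over both types and without hypertrophy replicates 6 and 7. The family probe set 164769_f_at, too dim to be tested, read 39.0 to 64.2 in hypertrophy and 51.4 to 68.0 in wild type, with 6 of 8 hypertrophy arrays below the lowest wild type array, the opposite side from the called probe set.

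Gm5907 is annotated as a long non-coding RNA gene. Its probe set 116234_at read 32.2, 47.1, 60.9, 26.6 and 45.0 in wild type, of which 1 was under the floor, and 70.1 to 118 in hypertrophy. The log2 difference was 1.09 ± 0.20 SE (adjusted p = 0.0352), and with 1 array left out the call held only without hypertrophy replicate 1, 4, 7 or 8 or wild type replicate 3. It was lost without the filter, with sex as a covariate, with adjustment over both types and without hypertrophy replicates 6 and 7.

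A further 3 called probe sets carry no single gene name in the annotation. The probe set 109531_at read 418, 490.2, 461, 489 and 448 in wild type and 927 to 1030 in hypertrophy, and the groups did not overlap. Its log2 difference was 1.08 ± 0.09 SE, 2.12-fold higher (adjusted p = 3.59e-06). The probe set 164580_at, which the annotation assigns to more than 1 gene, read 205 to 251 in wild type and 343 to 559 in hypertrophy, 0.92 ± 0.11 SE (adjusted p = 0.000338). The family probe set 165318_f_at was under the floor in all 5 wild type arrays (6.71 to 19.8) and read 47.5 to 86.0 in hypertrophy, which makes it at least 2.45-fold higher (adjusted p = 0.0256). Its call was lost without hypertrophy replicate 3, 4 or 5, without any 1 of the wild type arrays, with no filter, with the floor at the 30th percentile, with adjustment over both types and without hypertrophy replicates 6 and 7.

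**Figure D2:**
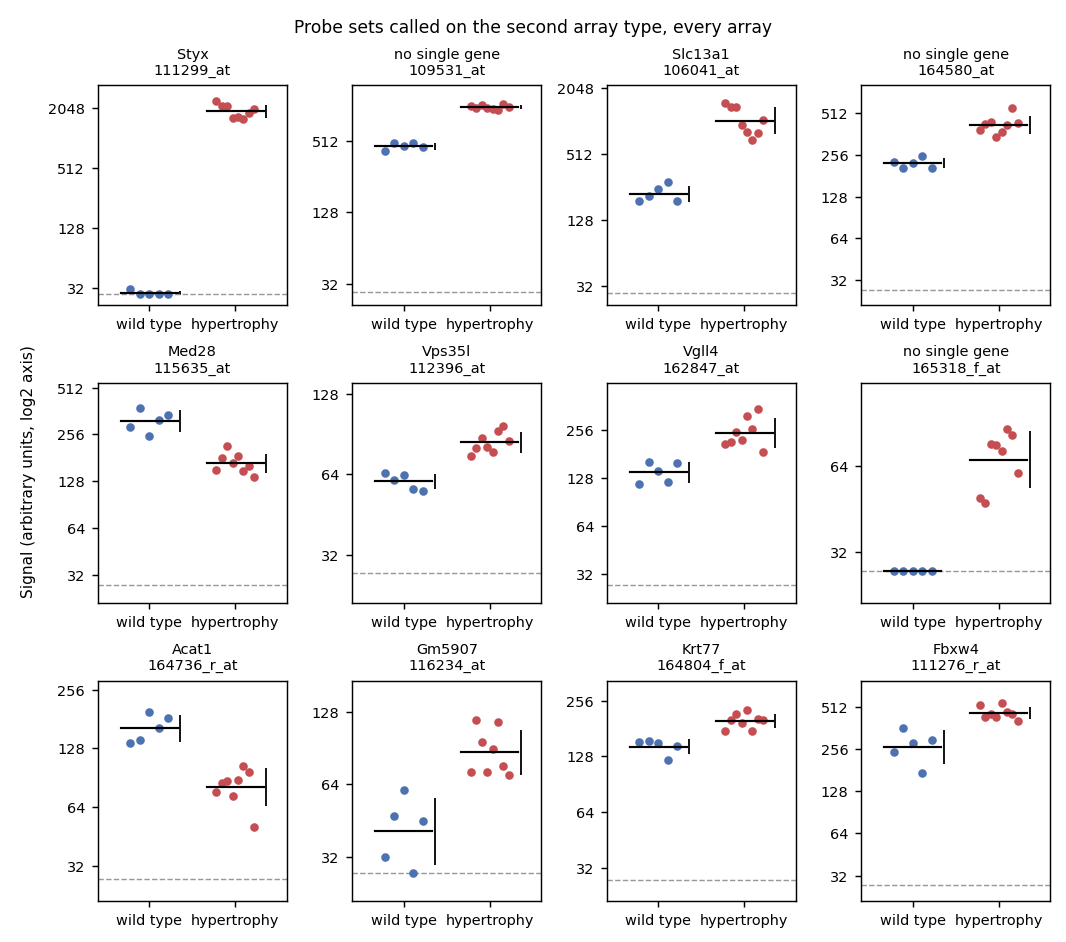
Each panel is a called probe set of the second array type, with the signal of the 5 wild type (blue) and 8 hypertrophy (red) arrays on a log2 axis; values under the floor of 27.5 (dashed) are drawn at it, horizontal lines are means and vertical lines the SD of the log2 values. In every panel the groups lie apart, from at least 67.8-fold for Styx to 1.37-fold for Krt77.

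Across the 9 named genes, 6 have other probe sets on either array type, 12 in all. Of these, 6 were tested and 0 were called (limma; 1 of them, 164901_r_at of Fbxw4, had an unadjusted p under 0.05, 0.0471, in the opposite direction to its called partner). In 0 of the 12 did hypertrophy and wild type lie apart. For these 6 genes the called difference was seen by 1 probe set each. Whether partner probe sets report the same transcripts was not tested.

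**Figure D3:**
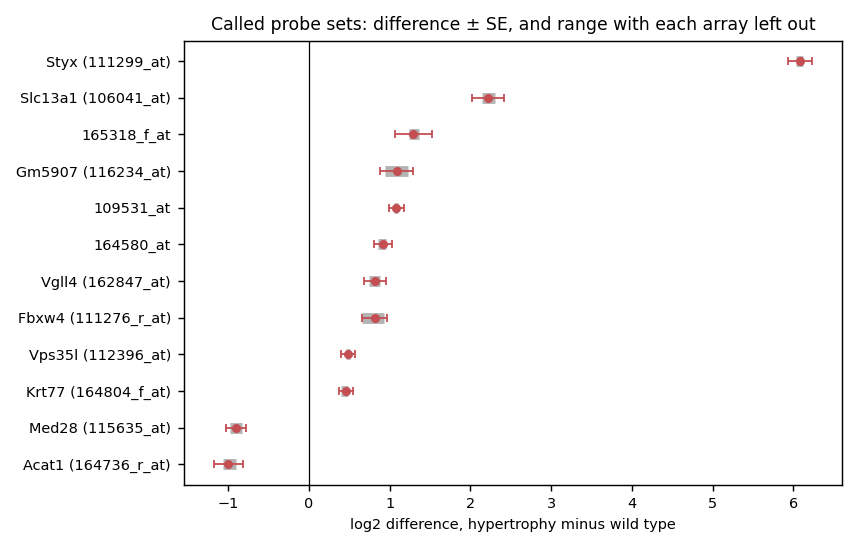
The x axis is the log2 difference of hypertrophy minus wild type for each called probe set on the y axis; red points are the fit over all arrays with its SE, and grey bars span the 13 fits that leave out 1 array each. Styx spans 6.03 to 6.12 and Slc13a1 2.14 to 2.30. No bar reaches 0, which the choice of called probe sets from these same arrays favours.

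Markers of the hypertrophic fetal programme were examined next, since they are the usual measure of this state, and none was called. Nppa, which encodes atrial natriuretic peptide, read 2538, 929, 1904, 2688 and 968 in wild type and 646 to 3982 in hypertrophy, with a median of 1429. Replicates 3 and 4 of hypertrophy, at 3982 and 3800, exceeded every wild type array, while 3 others lay below them all. The log2 difference was -0.11 ± 0.42 SE (adjusted p = 0.992), an error that leaves room for a change in either direction.

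Nppb, for B-type natriuretic peptide, read 2868, 1451, 2609, 3055 and 1145 in wild type and 958 to 3419 in hypertrophy, and differed by -0.03 ± 0.29 SE (adjusted p = 0.998). The groups covered nearly the same range. Signs of both natriuretic peptide differences turned under other settings.

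Acta1, skeletal alpha actin, read 1492, 1153, 1694, 1291 and 694 in wild type and 1007 to 5055 in hypertrophy, with a median of 1667. Hypertrophy replicates 2, 3 and 4 were at 4501, 5055 and 2861 and replicate 1 at 1740, above all wild type arrays, and the other 4 were within the wild type range. The difference of 0.75 ± 0.38 SE was not called (adjusted p = 0.960). It was 1.31 among arrays read as female and 0.14 among those read as male (sex was read from Xist and Eif2s3y, as described with the array features). Without hypertrophy replicates 6 and 7, both read as male and low in Gapdh ratio, it was 1.04.

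Myh7, the slow beta myosin heavy chain, has 2 probe sets on the first type, both of sequence families that may bind other myosin transcripts. The dimmer, 161547_f_at, read 1306, 946, 938, 1437 and 619 in wild type and 1361 to 2364 in hypertrophy. In 6 of 8 hypertrophy arrays it exceeded every wild type array (0.77 ± 0.18 SE, unadjusted p = 0.000547, adjusted p = 0.590). The brighter, 98616_f_at, at 5329 to 6624 in wild type and 5594 to 8633 in hypertrophy, differed by 0.17 ± 0.10 SE (adjusted p = 0.960), 0.60 less on the log2 scale than its partner.

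Myh6, the alpha myosin heavy chain of the adult mouse ventricle, read 8316 to 8590 in wild type and 7255 to 9799 in hypertrophy, with a difference of -0.0025 ± 0.08 SE that turned sign under quantile normalization. Hypertrophy arrays lay on both sides of the narrow wild type range, 4 above and 4 below. Atp2a2, which encodes SERCA2, the pump that returns calcium to the sarcoplasmic reticulum, differed by 0.04 ± 0.07 SE on the first type and by -0.02 ± 0.16 on the second. Its first-type signals were 4996 to 5642 in wild type and 4954 to 5976 in hypertrophy.

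**Figure D4:**
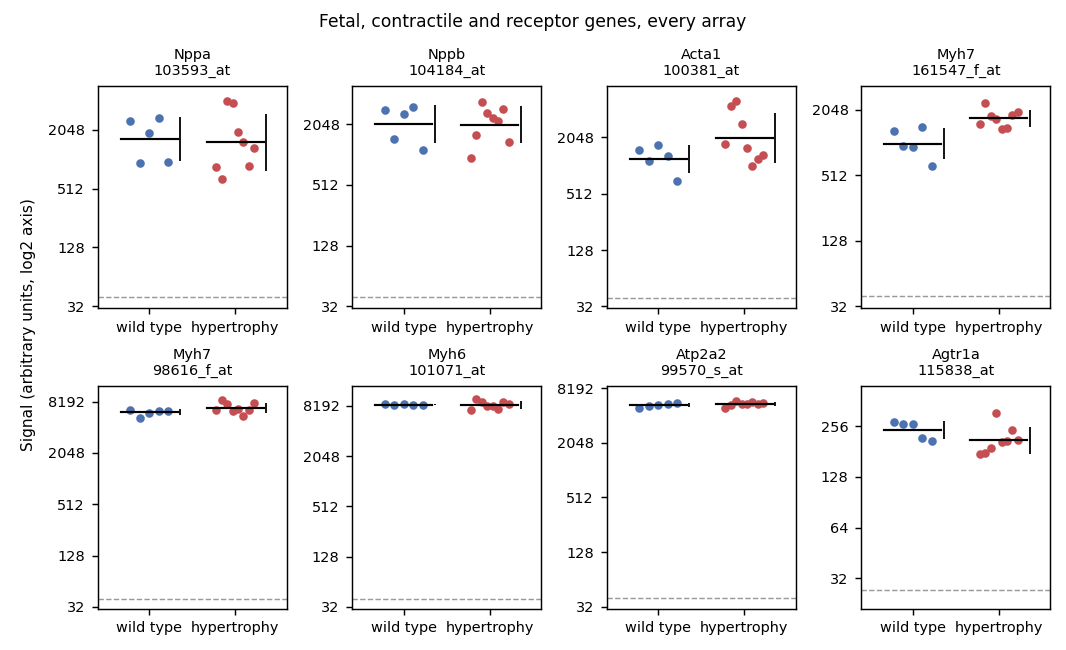
Signals of fetal programme, contractile, calcium pump and receptor probe sets by array, on a log2 axis, with 5 wild type (blue) and 8 hypertrophy (red) arrays; horizontal lines are means, vertical lines the SD of the log2 values and dashed lines the floor of the array type. All panels are of the first type except Agtr1a. Ranges of the groups overlap in every panel, and 4 hypertrophy arrays of Acta1 lie above wild type.

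Gene lists are read below against all 9440 genes, of which 4825 were higher and 4615 lower in hypertrophy, with a median log2 difference of 0.003. Of all genes, 4.05% were higher and 2.64% lower with an unadjusted p under 0.05 (limma). These values pool both array types, and lists differ in how many of their genes were read on each. Probe sets of the first type had a median of -0.013, with 4.47% under that p, and those of the second 0.032, with 9.77%. Of the 22 stress and fetal marker genes tested, 12 were higher and 10 lower in hypertrophy, with a median of 0.06 that was -0.004 without hypertrophy replicates 6 and 7, and 0 were called (limma; 1 had an unadjusted p under 0.05). That 1 is Xirp2, an actin-binding repeat protein of the intercalated disc, with 784 to 972 in wild type and 639 to 1804 in hypertrophy. In 7 of 8 hypertrophy arrays it exceeded every wild type array, and replicate 1 was below them all (0.61 ± 0.21 SE, adjusted p = 0.353). The lowest difference of the list was that of Myl4, the atrial light chain, at -0.69. Myh7 entered the list by its brighter probe set only. Its dimmer one, 161547_f_at, with an unadjusted p of 0.000547 (limma), is therefore not in that count.

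In the renin-angiotensin system 8 of 16 listed genes were tested and 0 called (limma; 1 with an unadjusted p under 0.05). Agtr1a, the main mouse gene of the type 1 angiotensin receptor, read 272, 262, 265, 217 and 207 in wild type and 174 to 305 in hypertrophy, and differed by -0.20 ± 0.14 SE (adjusted p = 0.672). The sources used here do not say whether its probe set binds the transgene's mRNA. No probe set of either type is annotated to Agtr1b alone. Agtrap, a protein that promotes internalisation of that receptor, read 111, 92.1, 104, 106 and 87.9 in wild type and 115 to 158 in hypertrophy. Its groups lay apart without passing the adjusted threshold (0.47 ± 0.11 SE, unadjusted p = 0.000479, adjusted p = 0.590). Agt, the precursor angiotensinogen, and Ace, the converting enzyme, stood at -0.04 and -0.05.

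Downstream signalling gave no call among the 39 genes tested of Gq, calcineurin and MAP kinase signalling (limma; 1 higher and 2 lower with an unadjusted p under 0.05), with a median of -0.03 that was 0.0075 without hypertrophy replicates 6 and 7. Gsk3b, a kinase that restrains hypertrophic growth through NFAT, read 84.9 to 110.0 in wild type and 103 to 155 in hypertrophy (0.39 ± 0.11 SE, adjusted p = 0.275). Arrb2, the arrestin that uncouples receptors such as AT1 from G proteins, stood at -0.24 ± 0.09 SE (adjusted p = 0.378). Of 16 immediate early genes, which growth stimuli induce within minutes, 0 were called (limma; 1 with an unadjusted p under 0.05, Jun, at -0.22 ± 0.09 SE). Jun read 101 to 117 in wild type and lay below that range in 7 of 8 hypertrophy arrays.

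Contractile genes followed the same course. Among 23 sarcomere and Z-disc genes 15 were lower and 8 higher, with a median of -0.05 (-0.004 under quantile normalization, and 0.02 among female arrays), and 0 were called (limma; 2 with an unadjusted p under 0.05). Lmod2, which nucleates and lengthens thin filaments, read 388 to 484 in wild type and 327 to 755 in hypertrophy, above wild type in 7 of 8 arrays (0.46 ± 0.17 SE, adjusted p = 0.378). Flnc, a filamin of the Z-disc, stood at 0.30 ± 0.14. Of 26 genes of calcium cycling and ion channels 0 were called (limma; 1 with an unadjusted p under 0.05). That gene, Casq1, a calcium buffer of the sarcoplasmic reticulum, stood at 0.36 ± 0.13 SE.

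Genes of the main pathways of energy supply were compared list by list. Of the 60 respiratory chain and ATP synthase genes tested, 56 were lower and 4 higher, with a median of -0.18 beside 0.003 over all genes. This median lay between -0.13 and -0.20 under quantile normalization, median scaling, each sex alone and without hypertrophy replicates 6 and 7. It was not computed without hypertrophy replicate 1, the lowest array for this list. By an unadjusted p under 0.05, 3 were lower and 0 higher (0 called, limma), beside 2.64% of all genes lower and 4.05% higher. Uqcrc2, a core subunit of complex III, read 1333, 1596, 1899, 1796 and 1398 in wild type and 638 to 1673 in hypertrophy, below all wild type arrays in 6 of 8 (-0.50 ± 0.19 SE, adjusted p = 0.960). Atp5d, a subunit of the ATP synthase, stood at -0.27 ± 0.12.

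The summed signal of the 59 of these genes on the first type was 103133 to 129640 over wild type arrays and 82240 to 128741 over hypertrophy arrays, so the groups overlap. By their mean log2 signal, hypertrophy replicates 4 (10.27), 6 (10.16) and 1, the lowest, lay below the lowest wild type array (10.39). Replicate 7 (10.763) lay just above the highest wild type array (10.758), so leaving out replicates 6 and 7 removed the highest array and kept the lowest.

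Glycolysis and glucose transport gave 19 lower and 2 higher of 21 genes tested, with 0 called. The median was -0.18, and it was -0.07 among female and -0.26 among male arrays. With an unadjusted p under 0.05, 3 were lower and 0 higher (limma), beside 2.64% of all genes lower and 4.05% higher. Eno3, the muscle enolase, read 2091 to 2666 in wild type and 1377 to 2392 in hypertrophy (-0.38 ± 0.15 SE). Ldhb, the heart form of lactate dehydrogenase, lay under the wild type range of 2916 to 3641 in 7 of 8 hypertrophy arrays (-0.38 ± 0.16 SE, adjusted p = 0.960). Slc2a4, the insulin-responsive glucose transporter GLUT4, had the lowest value of the list, -0.52.

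Of 23 genes of the tricarboxylic acid cycle and pyruvate dehydrogenase, 16 were lower and 0 called (limma; 0 with an unadjusted p under 0.05), with a median of -0.09. Citrate synthase, Cs, stood at -0.23 ± 0.13 SE on the first type. Fatty acid oxidation, the main fuel pathway of the adult heart, had 11 higher and 15 lower of 26, and a median of -0.02 that turned to 0.005 under quantile normalization and to 0.10 among female arrays. Ppara, the nuclear receptor that drives this pathway, stood at -0.24 ± 0.11 SE and Acot2, a mitochondrial thioesterase, at 0.50 ± 0.23.

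Protein synthesis, turnover and stress genes held no call. The medians were -0.08 over 26 cytosolic ribosomal protein genes (0.003 among female arrays), -0.05 over 32 proteasome and muscle ubiquitin ligase genes, -0.02 over 26 heat shock and unfolded protein response genes (0.01 among female arrays) and -0.07 over 26 genes of oxidative stress and NADPH oxidase. Psmb2, a subunit of the proteasome core, read 451, 462, 545, 447 and 515 in wild type and 244 to 429 in hypertrophy. Its groups lay apart, but the difference of -0.47 ± 0.14 SE had an adjusted p of 0.960. Nqo1, a quinone reductase under the antioxidant factor NRF2, stood at 0.43 ± 0.18 SE, and Ncf4, a subunit of the phagocyte NADPH oxidase, at -0.43 ± 0.17.

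Of 31 extracellular matrix genes tested, 24 were higher and 7 lower, with a median of 0.07 (0.07 to 0.11 under the scalings, in each sex and without hypertrophy replicates 6 and 7), and 0 were called (limma; 2 higher with an unadjusted p under 0.05). The summed signal of the 30 on the first type overlapped, at 11665 to 14064 in wild type and 9914 to 18642 in hypertrophy. By their mean log2 signal, hypertrophy replicates 3 and 4 (8.66 and 8.53) lay above the highest wild type array (8.33), and replicate 1 (7.66) lay below the lowest (7.93). Mgp, the matrix Gla protein that inhibits calcification, read 1418, 1296, 1100, 1600 and 976 in wild type and 1383 to 2710 in hypertrophy, above wild type in 4 of 8 (0.48 ± 0.19 SE, adjusted p = 0.960). Mmp2, a gelatinase, stood at 0.30 ± 0.12. The fibrillar collagens Col1a1, Col1a2 and Col3a1 stood at 0.20, 0.05 and 0.00, and periostin, Postn, a marker of activated fibroblasts, at -0.00.

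In TGF-beta signalling, which promotes fibrosis, and the related BMP signalling, 12 of 21 genes were higher and 0 called, with a median of 0.08 (0.006 without hypertrophy replicates 6 and 7; limma, 2 higher with an unadjusted p under 0.05). Both are receptors. Bmpr2, the type II BMP receptor, stood at 0.30 ± 0.13 SE by its brighter probe set and Tgfbr3, the coreceptor betaglycan, at 0.31 ± 0.14. A dimmer Bmpr2 probe set, 105349_at, read 199, 195, 193, 156 and 159 in wild type and 209 to 312 in hypertrophy, without overlap (0.53 ± 0.12 SE, adjusted p = 0.0949).

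**Figure D5:**
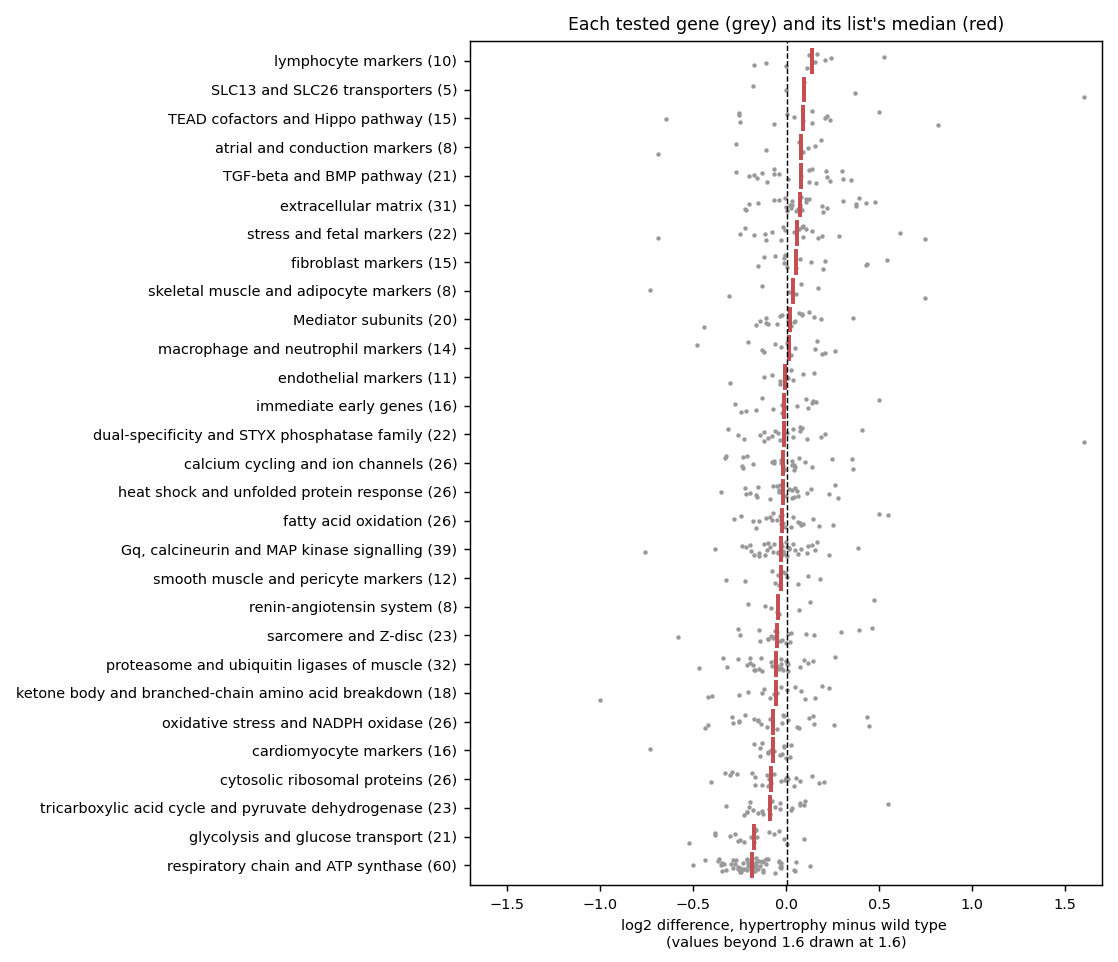
Each grey point is a tested gene's log2 difference of hypertrophy minus wild type on the x axis, grouped by gene list on the y axis with the number tested in brackets; red bars are list medians and the dashed line the median of all 9440 genes, 0.003. Among the lists drawn, those with 5 or more genes tested, medians run from -0.18 for the respiratory chain to 0.14 for lymphocyte markers, and the points at the right edge are Styx and Slc13a1.

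The cell types of the ventricle were followed through marker lists, since in bulk tissue fewer cells of a type and less RNA per cell cannot be told apart. Heart muscle markers were present throughout, with Myh6 at 7255 or more in all 13 arrays. Of 16 cardiomyocyte markers 14 were lower and 2 higher, with a median of -0.07 that was 0.001 under quantile normalization and 0.01 among female arrays, and 0 were called (limma; 1 lower with an unadjusted p under 0.05). That 1, Ckm (161569_f_at), the muscle creatine kinase, read 223, 159.5, 275, 252 and 185 in wild type and 73.8 to 209 in hypertrophy (-0.73 ± 0.22 SE, adjusted p = 0.960). The summed signal of 15 of these markers was 68856 to 80014 in wild type and 65025 to 81738 in hypertrophy.

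Fibroblast markers, which share genes with the matrix list, had 9 higher and 6 lower of 15 and a median of 0.05 (0.12 without hypertrophy replicates 6 and 7, and -0.009 among male arrays). Their summed signal on the first type was 6359 to 7591 in wild type and 5494 to 10004 in hypertrophy. Gsn, the actin-severing protein gelsolin, stood at 0.54 ± 0.18 SE (adjusted p = 0.960) and Pdgfra, a receptor that marks cardiac fibroblasts, at 0.43 ± 0.21. Their part in the matrix values was not tested.

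Endothelial markers had a median of -0.005 over 11 genes (0.005 under quantile normalization, 0.11 among male arrays), with summed signals of 2163 to 2671 and 1587 to 2948. Kdr, a VEGF receptor, stood at -0.30 ± 0.16 SE. Smooth muscle and pericyte markers had a median of -0.03 over 12 genes (0.06 among male arrays), macrophage and neutrophil markers 0.02 over 14 (negative in each sex alone, at -0.009 and -0.03), and lymphocyte markers 0.14 over 10. Cd74, the invariant chain of antigen presentation, stood at 0.53 ± 0.34 SE among the last. Atrial and conduction markers had a median of 0.08 over 8 genes (-0.03 among male arrays), and the summed signal of 6 of them was 1598 to 3715 in wild type and 1501 to 5105 in hypertrophy, a list that includes Nppa. Skeletal muscle and adipocyte markers, a list that holds Acta1 and Ckm, had a median of 0.04 over 8 genes (-0.02 among female arrays). Of 10 blood markers 2 were tested, Hba-a1 and Alas2, both at -0.53. No marker of any of these lists was called (limma).

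Probe sets whose groups lay apart without being called are given next, for each type the 6 of lowest p. On the first type these are 3 higher and 3 lower. Chil1, a secreted chitinase-like protein, read 151, 151, 172, 98.3 and 121 in wild type and 185 to 277 in hypertrophy, and had the lowest p of the type (0.73 ± 0.14 SE, adjusted p = 0.388). Ext1, an enzyme that builds heparan sulfate chains, read 159, 147, 162, 149 and 171 in wild type and 63.6 to 144 in hypertrophy (-0.80 ± 0.16 SE, adjusted p = 0.451). Maz, a zinc finger factor, stood at 0.44 ± 0.11 SE, Mrpl42, a mitochondrial ribosome protein, at -0.49 ± 0.12, and Pipox, a peroxisomal oxidase, at -0.37 ± 0.10. Agtrap, described above, completes the 6.

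On the second type the 6 stood nearer the threshold, with adjusted p from 0.0593 to 0.112. Gskip, a protein that binds GSK3B and protein kinase A, read 46.2 to 55.8 in wild type and 58.2 to 84.8 in hypertrophy (0.50 ± 0.10 SE, adjusted p = 0.0593). Cadm4, a cell adhesion molecule, read 107 to 138 in wild type and 79.1 to 95.2 in hypertrophy (-0.42 ± 0.08 SE, adjusted p = 0.0653). Rprd1b, a regulator of the RNA polymerase II tail, had narrow ranges of 325 to 336 and 256 to 283 (-0.32 ± 0.07 SE, adjusted p = 0.0949). Orai3, a subunit of store-operated calcium channels, and Pi4k2a, a lipid kinase, stood at 0.43 ± 0.10 and 0.41 ± 0.09 SE. The sixth is the Bmpr2 probe set above.

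The largest uncalled differences came with wide spreads inside the groups. Phf7, a testis-enriched chromatin protein, read 107, 249, 1, 1 and 138 in wild type and 196 to 662 in hypertrophy (1.81 ± 0.39 SE, adjusted p = 0.490). Cfb, complement factor B, read 280.1 to 568 in wild type and 1 to 578 in hypertrophy, with a median of 117 (-1.67 ± 0.60 SE, adjusted p = 0.960). Its difference was -1.16 without hypertrophy replicates 6 and 7, -0.45 among female arrays and -2.75 among male arrays. H2-M1, a class I-like antigen presentation gene, read 1147 to 1620 in wild type and 111 to 1286 in hypertrophy (-1.02 ± 0.46 SE). Its lowest arrays were hypertrophy replicates 7 (111) and 6 (383), which have low Gapdh ratios. Without them the difference was -0.42. Cyp2c29, a cytochrome P450 best known from liver, read 24.2 to 358 and 1 to 420.2 (-1.25 ± 0.58 SE). In Phf7, Cfb and Cyp2c29 values under the floor were raised to it, so their differences and the spread inside their groups are understated. H2-M1 had no array under the floor.

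On the second type Dclk1, a microtubule-associated kinase, read 5.11 to 56.7 in wild type and 1 to 570.5 in hypertrophy. Its difference of 1.71 ± 0.73 SE (adjusted p = 0.467) was 3.44 among female and 0.04 among male arrays. Without hypertrophy replicates 6 and 7, both classed male, it was 2.38. Rasl12, a small GTPase of the RAS family, stood at 1.69 ± 0.54 SE and Oc90 (165208_f_at), an inner ear protein, at 1.49 ± 0.53. Cdiptos, an antisense transcript whose reads cannot be told from its partner without knowledge of probe strand, stood at -1.54 ± 0.93. It stood at 0.41 among female arrays and at -0.72 without hypertrophy replicates 6 and 7. In Dclk1, Oc90 and Cdiptos some values were under the floor and were raised to it, so their differences depend on the floor.

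Genes with probe sets on both array types were measured by separate arrays and different probes. Whether same-numbered arrays of both types carry the same RNA is not said in the sources used here. The types may therefore not be separate measurements of the mice. Given are 6 of these genes, those lowest in p on both types among genes with the same sign on both. Citrate synthase differed by -0.23 ± 0.13 SE on the first type and by -0.40 ± 0.23 on the second. Cox6a1, a subunit of cytochrome c oxidase, differed by -0.34 ± 0.19 and -0.43 ± 0.22. Kcnj9, a potassium channel, stood at -0.58 ± 0.23 and -0.32 ± 0.16. Cog5, of a Golgi trafficking complex, stood at -0.59 ± 0.25 and -0.14 ± 0.08, and Dusp9, a MAP kinase phosphatase, at -0.26 ± 0.14 and -0.27 ± 0.16. Arglu1, a splicing-related protein, stood at 0.42 ± 0.19 and 0.17 ± 0.09. None of these 12 probe sets was called. Since the genes were chosen for low p and the same sign on both types, their agreement in direction was fixed by the choice. The values are a description.

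Features of the arrays other than their label were set beside these values. The ratio of the 5' to the 3' Gapdh control probe set, which falls when RNA is degraded or poorly copied, averaged 0.785 over the 8 hypertrophy arrays (SD 0.352) and 0.889 over the 5 wild type arrays (SD 0.054) of the first type, and a two-sided exact permutation test gave p = 0.622. Hypertrophy replicates 6 and 7 were low, at 0.468 and 0.0487 there and 0.379 and 0.0414 on the second type. Without both replicates 7 probe sets were called on the second type, among them 6 of the 12 (Styx, Slc13a1, Med28, Acat1, 109531_at and 164580_at), and Styx stood at 6.14 and Slc13a1 at 2.37. With the ratio as a covariate 14 were called, among them all 12.

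The second feature is sex, read from Xist, transcribed from the inactive X chromosome, and the Y-linked Eif2s3y on the first type. Xist exceeded Eif2s3y in 4 of 8 hypertrophy arrays (replicates 1 to 4) and 2 of 5 wild type arrays (replicates 1 and 2). Hypertrophy replicates 6 and 7, low in Gapdh ratio, were thus among the male arrays. Values by sex cannot be told apart from RNA quality or replicate number. Arrays of the second type were given the class of the same number. On that type the family probe set 105120_f_at of Y-linked Kdm5d read 27.4 to 45.8 in the 6 arrays classed female and 46.2 to 76.9 in the 7 classed male. Styx differed by 6.14 among female and 6.01 among male arrays, and Slc13a1 by 2.66 and 1.81. The sex by group term was called for 0 probe sets on either type (limma; 246 and 307 with an unadjusted p under 0.05), and for Slc13a1 it was 0.85 ± 0.29 SE (unadjusted p = 0.0105, adjusted p = 0.930). Array medians ran from 91.8 to 121 on the first type and from 69.3 to 80.6 on the second, with hypertrophy replicate 1 lowest on both.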

How the data were processed

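RNA of cardiac ventricle was measured on 2 Affymetrix array types with 16 arrays each. The authors deposited linear-scale intensities for every probe set and array. Their summarisation and scaling are not given in the sources used here, and raw scans were not analysed here. Deposited values below the type's 20th percentile (39.5 and 27.5) were set to that floor and all values taken to log2, so that changes at low signal are understated. Control probe sets were left out, and testing required a signal at or above the array median in 3 or more arrays.

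Each type was fitted with limma 3.58.1 (R 4.3.3) over all 16 arrays in 3 groups, with the contrast of hypertrophy minus wild type and Benjamini-Hochberg adjustment per type at 0.05. The fit was tested on simulated data. Precision is limited by the number of arrays. Names come from the platform annotation, updated to GRCm38.p6. A single gene is named by 10855 probe sets of the first type and 10603 of the second, several genes by 396 and 178, and none by 1237 and 1696. In lists a gene is represented by its brightest probe set, on the first type where it has one.

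Members and lists were chosen with earlier results of these data known. Named are the called probe sets and others of their genes, and 8 fixed marker genes, of which Agtr1b has no singly annotated probe set. Per type, the 6 non-overlapping uncalled ones of lowest p and the 4 largest uncalled differences are named. Added to these are 2 genes of lowest p per list with 5 or more tested (29 of 31 lists). The last are 6 genes low in p on both types, with the same sign on both. Other genes named beside these were chosen after their values were seen. Alternatives covered the normalization, floor, filter, variance model, array weights, sex, Gapdh ratio, a replicate block and left-out arrays. The sex-specific fits were added after seeing the data. Sequences are RefSeq's (GRCm38.p6). Figures were drawn with matplotlib 3.10.9.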

Additional observations from a re-analysis of the deposited data

Results flagged for a closer look

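In 15 of 213 groups of 5 or 8 arrays checked, 1 array stood far from the others by Dixon's test at the 95% level, where chance gives about 5%. A further 9 groups with 2 or more arrays under the floor were not checked. On the second array type the arrays standing apart were wild type replicate 4 of Krt77 (164804_f_at) at 122, wild type replicate 2 of Vgll4 (111434_at) at 80.8, wild type replicate 3 of Arglu1 (112435_at) at 134 and wild type replicate 5 of Dusp9 (164285_f_at) at 121. Hypertrophy replicate 1 was low there for Atp2a2 (164693_r_at), at 616, and Xirp2, at 639. The 5' to 3' ratio of Actb was 1.002 in wild type replicate 5. On the first type hypertrophy replicate 1 was low for Bcat2, an enzyme of branched-chain amino acid breakdown, at 98.7, and for Pdgfra, at 50.7. Hypertrophy replicate 6 was low for Fosl2, a subunit of AP-1, at 72.8, and for Cnn1, the smooth muscle calponin, at 228, and hypertrophy replicate 3 was high for Ncf4, at 181. Wild type replicate 2 was low for H2-M1, at 1147, for Smtn, smoothelin, at 272, and for Cd74, at 115. No cause was tested.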

How the results depend on the processing

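On the second array type the 12 calls became 12 under quantile normalization, 11 after median scaling, 12 with the floor at the 10th or the 30th percentile, 13 without a filter (7 of the 12 among them), 10 with a filter at 8 arrays, 11 with a variance trend and robust fit, 11 with only the groups compared, 22 with array weights, 9 with sex as a covariate, 14 with the Gapdh ratio, 7 without hypertrophy replicates 6 and 7, 3 among female and 5 among male arrays, 7 with adjustment over both types, and 5 to 25 with 1 array left out. These counts are not always of the same probe sets. Krt77 and Fbxw4 were lost under quantile normalization and under median scaling, where other probe sets were called. The first type gave 0 calls, 1 without a filter and 0 to 1 with 1 array left out. Same-numbered hypertrophy and wild type arrays correlated in their deviations at -0.114 to 0.363 on the first type and -0.183 to 0.028 on the second. On the first type wild type replicate 3 had hypertrophy replicate 3 as its best match (0.363). Every other wild type array of either type matched a hypertrophy array of another number best. Whether same-numbered arrays were handled together cannot be decided from these values, since shared handling need not leave a correlation. With a replicate block 3 probe sets of the second type were called and 0 of the first. Styx, Slc13a1 and 109531_at were called in all 16 other settings and all 13 fits with 1 array left out. No called difference changed sign, which their choice as called on these same arrays favours. The uncalled differences that changed sign are these. Fbxw4 (96768_at) was 0.051 in female arrays and -0.101 to 0.041 with 1 array left out. Vgll4 (115091_at) was 0.063 with the replicate block, 0.054 without hypertrophy replicates 6 and 7, 0.050 in female arrays and -0.123 to 0.0038 with 1 array left out. Acat1 (164907_f_at) was 0.046 in male arrays and -0.203 to 0.039 with 1 array left out. Myh6 was 0.040 under quantile normalization, 0.0049 without hypertrophy replicates 6 and 7, 0.016 in female arrays and -0.033 to 0.029 with 1 array left out. Nppa was 0.085 with array weights, 0.089 with the replicate block, 0.025 without hypertrophy replicates 6 and 7, 0.142 in female arrays and -0.311 to 0.073 with 1 array left out. Nppb was 0.030 under quantile normalization, 0.030 in male arrays and -0.241 to 0.128 with 1 array left out. Atp2a2 (164693_r_at) was 0.038 with array weights, 0.109 in male arrays and -0.084 to 0.102 with 1 array left out. Female arrays gave 0.41 for Cdiptos and -0.045 for Slc13a3, and male arrays -0.18 for Stard10. The cause was not tested. The floor limits values of dim probe sets.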
